A study of Ictidomys tridecemlineatus with 15 samples.

Results

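Complex II and the ATP synthase (complex V) of the mitochondrial respiratory chain were followed through hibernation by the transcripts of their subunits and assembly factors. Rows were taken by symbol, with case ignored: names that begin with Sdh or Atp5 and average at least 1 normalised CPM over the 15 libraries. This gave 24 of the 16993 rows of the table. They are the 4 subunits of complex II, 4 of its assembly factors, 15 subunits of the ATP synthase and Atp5s, which is named for the enzyme but is not one of its subunits. All 24 were at 1 or more in all 15 libraries and all 24 passed the filter on low values. The same selection extended to complexes III and IV and cytochrome c, which are not analysed here.

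RNA was sequenced from the supraoptic nucleus, a cluster of large neurons in the hypothalamus that release vasopressin and oxytocin, dissected by hand from brain slices of thirteen-lined ground squirrels. The states were torpor (hibernating), interbout arousal (IBA, hibernating) and active (non-hibernating), with 5 libraries each, called biological replicates in the design text. The labels name no genotype, drug treatment or age for any group. The p-values below measure the spread between these libraries. Values are normalised CPM, that is read counts divided by library size and by a further scaling factor of each library.

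Complex II, or succinate dehydrogenase, oxidises succinate to fumarate in the tricarboxylic acid cycle and passes the electrons to ubiquinone, so it belongs to the cycle and to the respiratory chain. The ATP synthase uses the proton gradient built by the chain: protons turn a ring of c subunits in the membrane, a central stalk turns with it, and the F1 head makes ATP. Hibernators pass through long bouts of torpor with a low metabolic rate and a cold body, broken by short arousals to normal body temperature, the IBA. All subunits of complex II and nearly all of those of the ATP synthase are encoded in the nucleus.

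The libraries held 21570371 to 26113341 reads in torpor, 19320883 to 23621875 in IBA and 15844561 to 21216931 in the active state, with scaling factors of 0.936 to 0.990, 0.999 to 1.04 and 1.01 to 1.04 for the 3 states in that order. Of the 15501 rows tested, 1508 were higher and 1510 lower in torpor than in active squirrels (adjusted p under 0.05). Without the further scaling factors 1053 rows were higher and 2273 lower. None of the neuron markers was at 0 in all 5 libraries of a state. Markers of other cells moved with the states: 10 of 13 oligodendrocyte markers were higher in torpor than in active squirrels, with summed levels of 4494 to 14906 normalised CPM in torpor, 3820 to 9747 in IBA and 3106 to 5554 in active squirrels. Of 13 neuron markers 2 were higher, and their mean log2 level was 8.50 to 8.61 in torpor, 8.27 to 8.47 in IBA and 7.95 to 8.47 in active squirrels, with the lowest value in active library 4. Lower in torpor were 4 of 10 mural, 3 of 11 endothelial and 1 of 9 astrocyte markers, and 2 of 9 microglia markers were higher. The part of these 4 lists in the member results was not tested. In tissue of mixed cells, fewer cells of a type and less RNA per cell cannot be told apart.

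In torpor against active squirrels, 5 of the 24 rows rose: Sdha and Sdhb of complex II, and Atp5b, Atp5d and Atp5o of the ATP synthase. That is 20.8% of the members, against 9.73% of all rows called higher. The count was 2 without torpor library 3, and 3 without torpor library 2 or active library 1, 2 or 5. In those fits 7.30% (without torpor library 3) to 11.1% (without torpor library 2) of all rows were higher. With all 15 libraries no member fell in limma's test, against 9.74% of all rows. At an unadjusted p under 0.05, 9 members were higher and 0 lower, against 17.1% and 16.8% of all rows. By other tools edgeR called 5 members higher, DESeq2 5 and voom 6, against 10.2%, 12.3% and 9.43% of all rows. All 3 tools called 0 members lower. The log2 fold change was above 0 in 22 of 24 (18 of 24 without the further scaling factors), with a median of 0.17, against 0.007 over all rows tested. In complex II, 2 of 4 subunits rose, and the median over the 4 was 0.31. In the ATP synthase 3 of 15 rose, the median was 0.17, and 14 of 15 were above 0 (a median of 0.11 without torpor library 2), with Atp5e and Atp5j below 0 without the further scaling factors. The difference between the complexes was not tested.

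**Figure D1:**
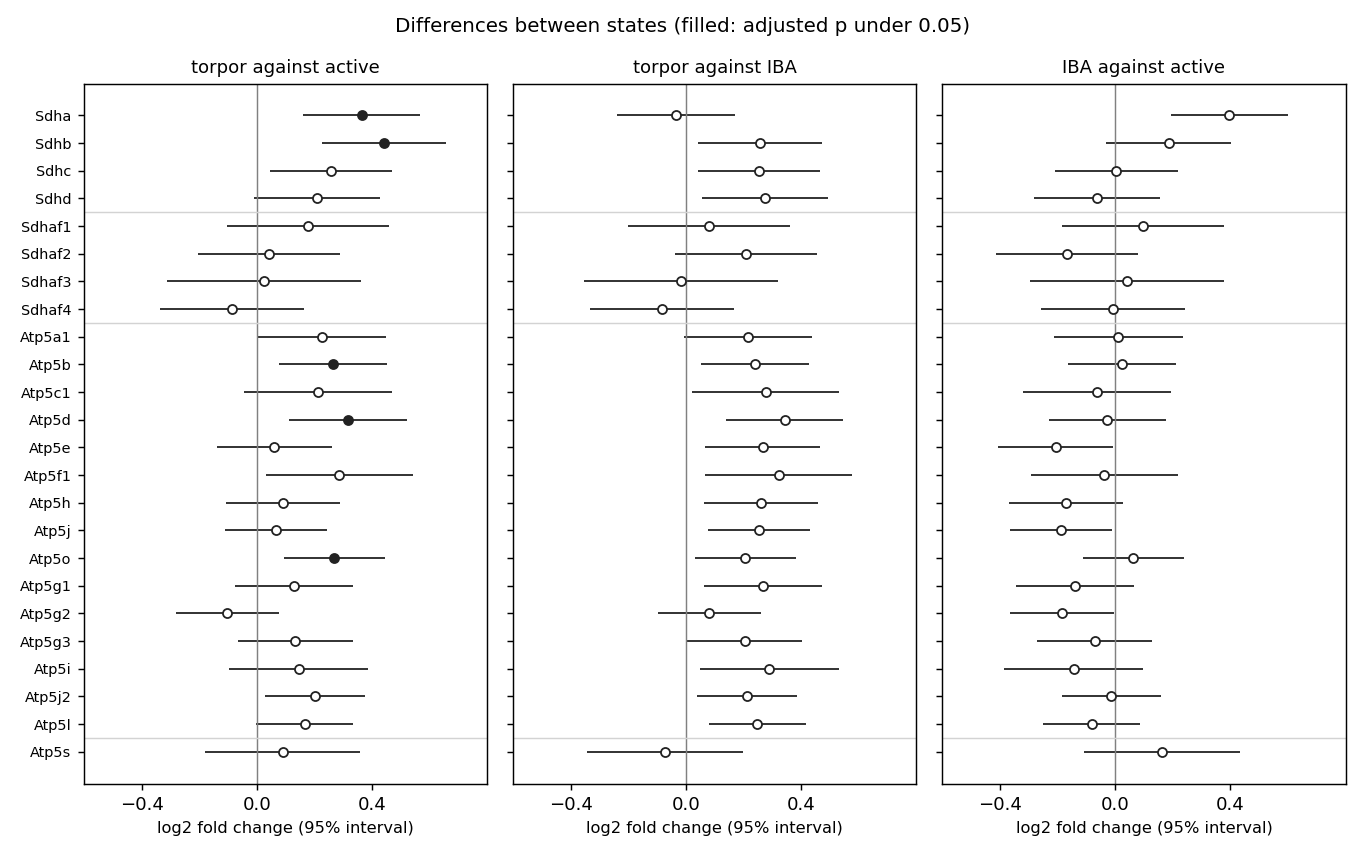
Log2 fold change of each of the 24 members, with its 95% interval, in torpor against active, torpor against IBA and IBA against active; lines part complex II subunits, its assembly factors, ATP synthase subunits and Atp5s. Filled points mark an adjusted p under 0.05: Sdha, Sdhb, Atp5b, Atp5d and Atp5o in torpor against active squirrels, and none in the other comparisons.

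Sdha encodes the flavoprotein subunit that oxidises succinate. It was at 915, 886, 1139.8, 881 and 929 normalised CPM in torpor libraries 1 to 5, at 1001, 961, 977, 1056 and 858 in IBA and at 752, 806, 805, 614 and 717 in active squirrels. Every torpor and every IBA library lay above every active library, while torpor and IBA overlapped. Sdha rose in torpor against active squirrels by 0.36 ± 0.10 on the log2 scale (SE, n = 5 each, limma adjusted p = 0.0150). Sdha and Atp5o were the 2 members whose torpor and active libraries did not overlap, both higher in torpor; 5.41% of all rows had torpor above active in that way and 6.79% had it below. In IBA against active squirrels Sdha differed by 0.40 ± 0.10 (limma adjusted p = 0.0501, 95% interval 0.19 to 0.60), just outside the threshold of 0.05; it passed without torpor library 2 or 3, which share the estimate of spread (adjusted p as low as 0.0403). Torpor and IBA differed by -0.034 ± 0.10, with an interval of -0.24 to 0.17 and a limma adjusted p of 0.886.

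Sdhb encodes the iron-sulfur subunit, which carries electrons from the flavin of Sdha towards ubiquinone. It was at 278, 326, 317, 272 and 214 normalised CPM in torpor, 237, 219.9, 216, 254 and 239 in IBA and 210.3, 197, 217, 187 and 213 in active squirrels. Torpor libraries 1 to 4 lay above every active and every IBA library, and torpor library 5 lay inside the active range and below every IBA library. Sdhb rose in torpor against active squirrels by 0.44 ± 0.10 (log2, SE, limma adjusted p = 0.00679), the highest fold change among the 24. IBA against active gave 0.19 ± 0.10 (limma adjusted p = 0.328), and torpor against IBA gave 0.26 ± 0.10 (limma adjusted p = 0.173). Sdha and Sdhb kept their calls in torpor against active squirrels when any 1 of the 15 libraries was left out.

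Sdhc and Sdhd encode the membrane anchors that hold the haem and form the ubiquinone site. Sdhc was at 591, 698, 589.8, 497 and 525 normalised CPM in torpor, 478, 456, 472, 478 and 535 in IBA and 402, 488, 487, 559.9 and 486 in active squirrels. Sdhd was at 292, 351, 303, 249 and 284 in torpor, 243, 226, 239, 262 and 247 in IBA and 216, 249.5, 237, 314 and 265 in active squirrels. Both had torpor library 2 as their highest of all 15, and their states overlapped. Sdhc differed by 0.26 ± 0.10 in torpor against active (log2, limma adjusted p = 0.0816) and Sdhd by 0.21 ± 0.10 (limma adjusted p = 0.167), and neither passed. Over 29 alternative settings Sdhc passed in 3 and Sdhd in 0. In IBA against active squirrels Sdhc stood at 0.0040 ± 0.10 and Sdhd at -0.064 ± 0.10, with limma adjusted p-values of 0.989 and 0.772.

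**Figure D2:**
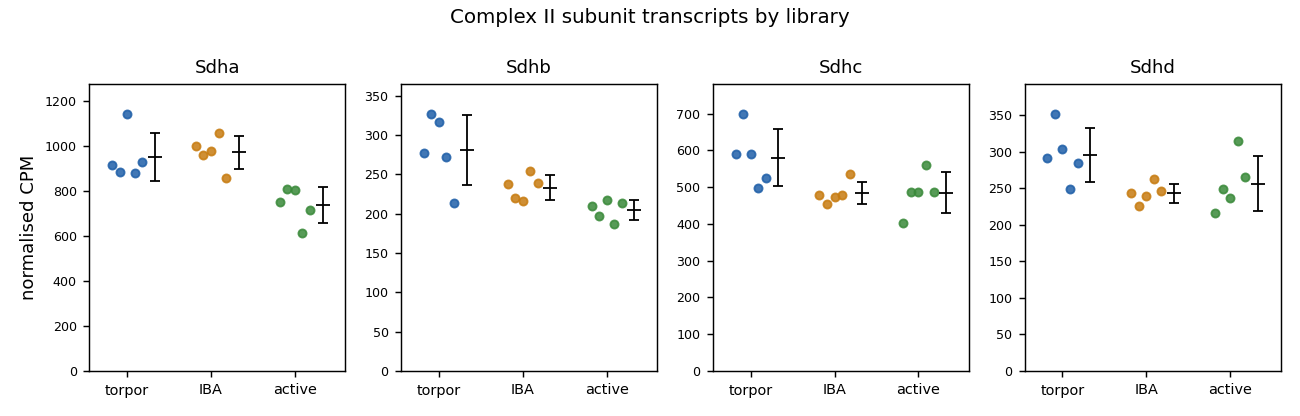
Normalised CPM of the 4 complex II subunits in each library (points) with the mean and SD of each state, torpor, IBA and active from left to right. Sdha was above all 5 active libraries in all 5 torpor and all 5 IBA libraries; Sdhb was above them in torpor libraries 1 to 4, and Sdhc and Sdhd overlapped between the states.

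Whether subunits of 1 complex differed unequally between states was tested inside each library. The log2 difference between a pair of subunits was compared between states with an exact two-sided permutation test, for 6 pairs in complex II and 10 in the F1 head over 3 comparisons, 48 tests chosen after the values were seen. The smallest p was 0.0159, for Sdha minus Sdhd in IBA against active squirrels (a difference of 0.46 on the log2 scale, adjusted p = 0.381), and the smallest this exact test can give is 0.00794. A single pair at that smallest p, with no other pair near it, would have an adjusted p of 0.381, so the 48 tests could hardly pass and the absence of an adjusted call says little about unequal change. Before adjustment 4 more were under 0.05: Sdha minus Sdhd at -0.31 in torpor against IBA (exact p = 0.0238), and, in IBA against active, Sdha minus Sdhc at 0.39 (exact p = 0.0317), Sdha minus Sdhb at 0.21 (exact p = 0.0397) and Atp5a1 minus Atp5e at 0.22 (exact p = 0.0476). In torpor against active squirrels no complex II pair was under 0.05 even unadjusted.

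The assembly factors of complex II had no call. Sdhaf2 attaches the flavin to Sdha, Sdhaf4 binds flavinated Sdha, and Sdhaf1 and Sdhaf3 help the iron-sulfur clusters into Sdhb. None of the 4 passed limma's test in any comparison, at an unadjusted p under 0.05 either, or in edgeR or DESeq2. Their median log2 fold change in torpor against active was 0.03. The highest was Sdhaf1 at 0.18 ± 0.13 (limma adjusted p = 0.374) and the lowest Sdhaf4 at -0.088 ± 0.12 (limma adjusted p = 0.641).

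In the ATP synthase, 2 of the 5 subunits of the F1 head and central stalk rose in torpor against active squirrels. Atp5b encodes the beta subunit, which holds the catalytic sites. It was at 879, 875, 796, 719 and 643 normalised CPM in torpor, 671, 629, 634, 642 and 716 in IBA and 639, 623, 681, 628 and 667 in active squirrels. Torpor libraries 1 to 4 were above every active and every IBA library, torpor library 4 only just above IBA library 5, and torpor library 5 lay inside the active range. The increase was 0.26 ± 0.090 (log2, SE, limma adjusted p = 0.0466). This call was lost when any 1 of 12 of the 15 libraries was left out, and held without IBA library 5, torpor library 4 or torpor library 5.

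Atp5d encodes the delta subunit of the central stalk. It was at 131, 136, 150.3, 172 and 163 normalised CPM in torpor, 133, 108, 115, 121 and 113 in IBA and 127, 123, 131, 102 and 118 in active squirrels. Torpor libraries 4 and 5 were the highest and torpor library 1 the lowest of their state, inside the active and IBA ranges; the active low was library 4. Atp5d rose by 0.32 ± 0.10 in torpor against active (log2, SE, limma adjusted p = 0.0304), and differed by 0.34 ± 0.10 in torpor against IBA (limma adjusted p = 0.0604). The call against active squirrels was lost without torpor library 3, 4 or 5 or active library 4 or 5 (adjusted p up to 0.0773), and without both torpor libraries 4 and 5, a choice made after the values were seen, the adjusted p was 0.175. Those 2 libraries also had the highest oligodendrocyte marker levels. With the mean oligodendrocyte marker level as a covariate the log2 fold change of Atp5d was 0.28 (limma adjusted p = 0.274). With the mean neuron marker level instead it was 0.14 (limma adjusted p = 0.493). These 2 fits called 2.32% and 2.78% of all rows higher, against 9.73% without a covariate. The part of either marker level in the Atp5d difference was not tested.

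The other F1 members did not pass. Atp5a1, the alpha subunit that alternates with beta in the head, stood at 0.23 ± 0.11 in torpor against active (log2, SE, limma adjusted p = 0.143). Atp5c1, the gamma subunit that forms the turning shaft, stood at 0.21 ± 0.12 (limma adjusted p = 0.232). Atp5e, the small epsilon subunit beside delta, stood at 0.060 ± 0.095 (limma adjusted p = 0.697).

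**Figure D3:**
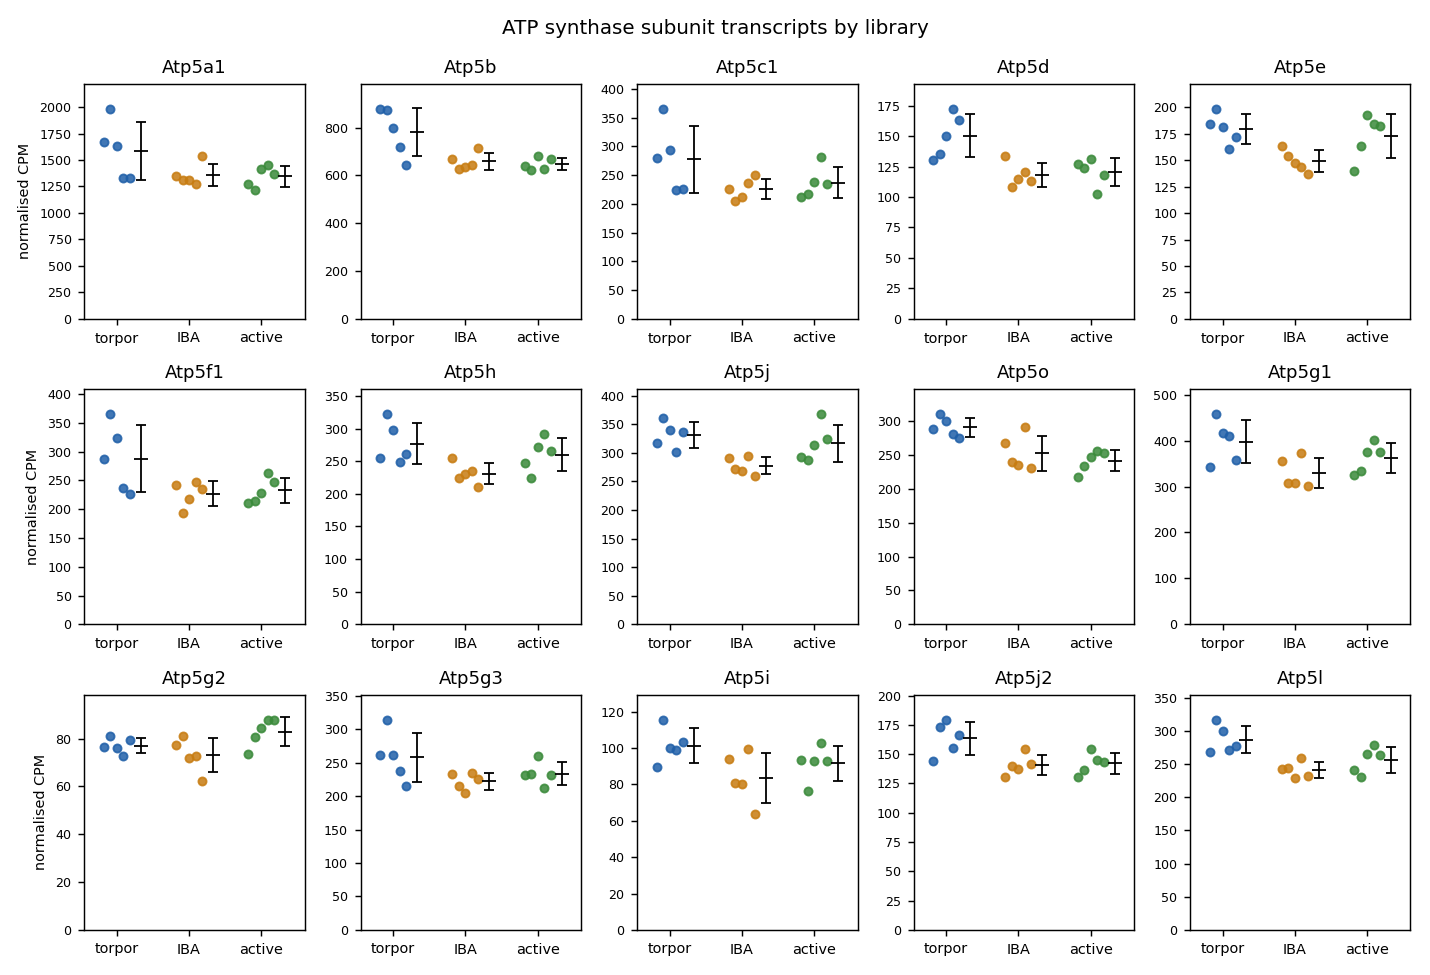
Normalised CPM of the 15 ATP synthase subunits in each library (points) with the mean and SD of each state, torpor, IBA and active from left to right. For Atp5o the 5 torpor libraries lay above the 5 active ones; for Atp5d the highest torpor values were those of libraries 4 and 5.

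Of the 4 peripheral stalk subunits, which keep the head from turning with the shaft, 1 rose. Atp5o, the subunit that joins the stalk to the head and the one named for oligomycin sensitivity, was at 288, 309.9, 299.6, 281 and 275 normalised CPM in torpor, 267, 239, 236, 291 and 230.0 in IBA and 218, 233, 247, 255 and 252 in active squirrels. All torpor libraries were above all active ones, and IBA library 4 lay inside the torpor range. Atp5o rose by 0.27 ± 0.083 in torpor against active (log2, SE, limma adjusted p = 0.0312). The adjusted p reached 0.0772 when 1 library was left out, and the call was lost without torpor library 2 or 3 or active library 1 or 2. Atp5f1 stood at 0.29 ± 0.12 (limma adjusted p = 0.107), Atp5h at 0.089 and Atp5j at 0.066, and none of these passed.

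The c ring and the membrane subunits had no call. Atp5g1, Atp5g2 and Atp5g3 encode the same mature c subunit. Whether reads were split between these genes was not examined, which leaves their values uncertain. Atp5g2 was the lowest of the ATP synthase in torpor against active, at -0.10 ± 0.085 (log2, SE, limma adjusted p = 0.426), while Atp5g1 stood at 0.13 and Atp5g3 at 0.13. The membrane subunits Atp5i, Atp5j2 and Atp5l, which sit where ATP synthases pair into dimers, stood at 0.15, 0.20 and 0.17. Atp5s stood at 0.089 ± 0.13 (limma adjusted p = 0.664).

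In torpor against IBA, both of them hibernating states, no member passed limma's test, against 0.961% of all rows called higher and 1.97% called lower. By other tools edgeR called 0, DESeq2 called 2 (Atp5d and Atp5l) and limma with voom weights called 1 (Atp5d), all higher in torpor. Of all rows, edgeR called 1.06% higher, DESeq2 2.78% and voom 1.85%. At an unadjusted p under 0.05, 16 of the 24 were higher and 0 lower, against 9.3% and 10.1% of all rows. All 15 ATP synthase subunits were above 0, their median log2 fold change was 0.25, and that of complex II was 0.25; the median of all rows was 0.002. Atp5j, a peripheral stalk subunit, and Atp5l, a membrane subunit, had no overlap between torpor and IBA, as did 1.9% of all rows in that direction and 3.86% in the other. Atp5j was at 317, 361, 339, 302 and 336 normalised CPM in torpor and 292, 272, 269, 295 and 260.3 in IBA, a difference of 0.25 ± 0.084 (log2, SE, limma adjusted p = 0.105). Atp5l was at 268, 317, 300.2, 272 and 277 in torpor and 242, 244, 229, 259 and 231 in IBA, a difference of 0.25 ± 0.080 (limma adjusted p = 0.0961). In both, all 5 torpor libraries were higher than the highest IBA library. With 1 library left out, Atp5d passed without torpor library 1 or active library 4, and Sdhb without torpor library 5.

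In IBA against active squirrels no member passed limma's test either, against 0.6% of all rows called higher and 0.703% called lower. By other tools edgeR called 0, and DESeq2 and voom 1 each (Sdha). Of all rows, in both directions together, edgeR called 214, DESeq2 848 and voom 702, against 202 by limma. The Sdha calls by DESeq2 and voom thus came in fits that called more of all rows. At an unadjusted p under 0.05, 1 member was higher (Sdha) and 3 were lower (Atp5e, Atp5g2 and Atp5j), against 10.2% and 9.46% of all rows. The median log2 fold change was 0.09 for complex II and -0.07 for the ATP synthase, with 3 of 15 ATP synthase subunits above 0. Both medians were smaller in size than the SD of such medians between libraries of a state, 0.10 for complex II and 0.11 for the ATP synthase. Within complex II, Sdha stood at 0.40, Sdhb at 0.19, Sdhc at 0.0040 and Sdhd at -0.064. With 1 library left out the ATP synthase median was -0.10 to -0.042, the last without IBA library 3. Sdha was the 1 member with no overlap, against 3.56% of all rows with IBA above active and 3.44% with IBA below. These 3 comparisons share libraries, so they are not independent of each other.

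Within a state the members varied by library. Torpor library 2 was the highest torpor library for 18 of 24 members, 12 of them ATP synthase subunits, and torpor library 4 the lowest for 12. Torpor library 2 also stood apart over all rows, at -47.5 on the second principal component against -18.6 to 6.8 in the other torpor libraries, and its mural marker sum was 199 against 306 to 439. On the first component active library 4 was at -51.1, against -20.6 to -16.2 in the other active libraries. Summed over the 15 ATP synthase subunits, torpor libraries held 4833 to 6373 normalised CPM, IBA libraries 4403 to 4728 and active libraries 4393 to 5054. Summed over complex II, torpor libraries held 1899 to 2350, IBA libraries 1862 to 2051 and active libraries 1579 to 1746, so that all torpor and IBA sums were above all active sums. Between IBA and active squirrels this rested mostly on Sdha, which averaged 971 ± 72.7 in IBA and 739 ± 79.4 in active squirrels (SD, n = 5 each), while Sdhc averaged 484 ± 30.1 in IBA and 485 ± 56.0 in active squirrels. Torpor libraries 4 and 5 had the lowest sums over the 24 members among the torpor libraries, 7082 and 7061 normalised CPM. Leaving out both was a choice made after the values were seen. It keeps the torpor libraries with the higher sums, so the next counts give no independent support for a rise in torpor. Without both torpor libraries 4 and 5, 8 members were higher in torpor than in active squirrels, and 5 higher than in IBA. The 8 were Sdha, Sdhb, Sdhc, Atp5a1, Atp5b, Atp5c1, Atp5f1 and Atp5o. In the same fit 7.09% of all rows were higher in torpor than in active squirrels and 1.30% higher than in IBA.

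**Figure D4:**
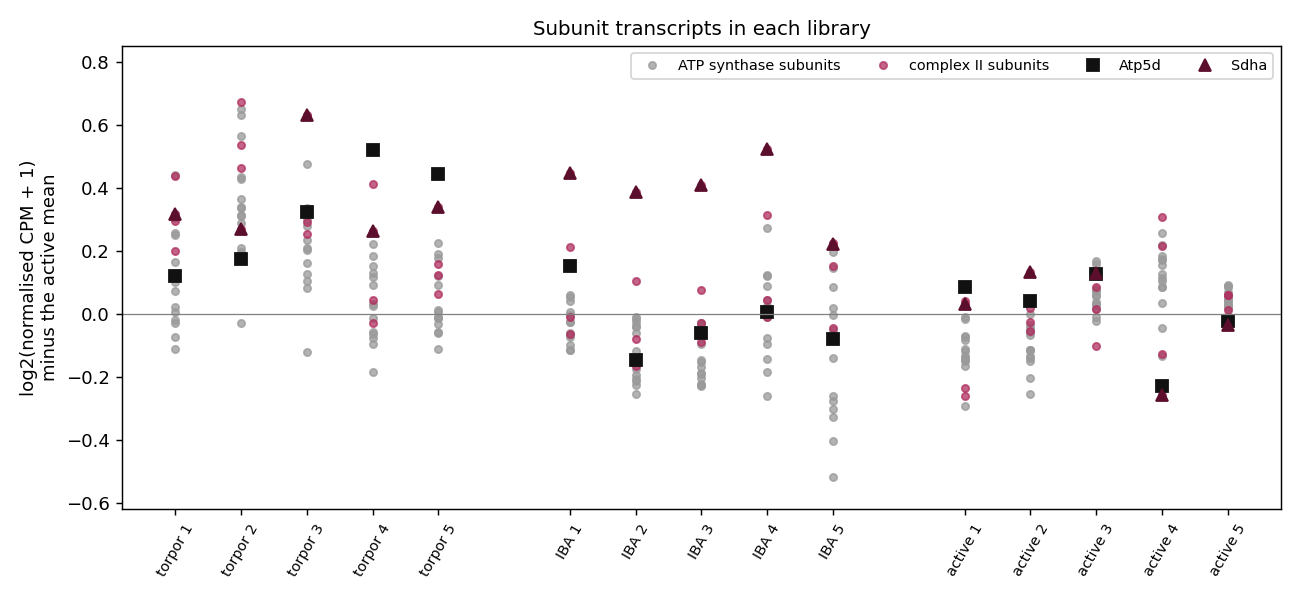
Log2(normalised CPM + 1) of each complex II and ATP synthase subunit minus its mean in active squirrels, for each of the 15 libraries. Torpor library 2 holds most of the highest points; Sdha (triangles) is above 0 in all torpor and IBA libraries, and Atp5d (squares) is highest in torpor libraries 4 and 5.

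Genes that work beside these complexes were counted in the same way, against the 9.73% of all rows higher and 9.74% lower in torpor than in active squirrels. At an unadjusted p under 0.05 these shares were 17.1% and 16.8%. By other tools they were 10.2% and 9.97% in edgeR, 12.3% and 11.6% in DESeq2, and 9.43% and 9.57% in voom. Of the complex I subunits, 10 of 35 (28.6%) were higher in torpor than in active squirrels and 0 lower (0 also unadjusted and in edgeR, DESeq2 and voom), and their median log2 fold change was 0.19. Of 13 measured factors for assembly of the complexes and for copper or haem delivery, 3 (23.1%) were higher in torpor than in active squirrels and 0 lower (2 lower unadjusted; 0 in edgeR, DESeq2 and voom). They were Atpaf1, a chaperone of the F1 head, at 0.37 ± 0.11 (log2, SE, limma adjusted p = 0.0303), Pet100 at 0.35 ± 0.11 (limma adjusted p = 0.0315) and Pet117 at 0.47 ± 0.16 (limma adjusted p = 0.0428). Pet117 was low, at 1.55 to 2.31 normalised CPM in torpor and 0.664 to 1.36 in active squirrels. Its fold change therefore depends on the 1 added before the log2 step. Of 11 regulators of nuclear genes for respiration, 0 were higher, also unadjusted and in edgeR, DESeq2 and voom, and Yy1, a zinc finger factor, was the 1 lower (9.09%, near the share of all rows) at -0.44 ± 0.12 (limma adjusted p = 0.0130). Of 13 enzymes of the tricarboxylic acid cycle, 0 passed limma's test, with a median of 0.20. Unadjusted, 6 (46.2%) were higher, against 17.1% of all rows. Of the 13, edgeR, DESeq2 and voom called only 1 each. The smallest adjusted p among them was that of Idh3b, a subunit of the NAD-dependent isocitrate dehydrogenase, at 0.25 ± 0.088 (limma adjusted p = 0.0530).

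Atpif1, the inhibitor that stops the ATP synthase from running in reverse, stood at 0.12 ± 0.089 in torpor against active (log2, SE, limma adjusted p = 0.355) and at 0.25 ± 0.089 in torpor against IBA (limma adjusted p = 0.135). Ndufa4, named for complex I and now placed in complex IV, rose in torpor against IBA by 0.38 ± 0.084 (limma adjusted p = 0.0247) without overlap. Against active squirrels it stood at 0.21 ± 0.084 (limma adjusted p = 0.0809).

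Over torpor libraries 1 to 5 the sums over the 24 members were 7886, 9036, 8313, 7082 and 7061 normalised CPM. Neuron marker sums were 8679, 9924, 9190, 8796 and 8149, highest in libraries 2 and 3 as the member sums were. Astrocyte marker sums were 9417, 7306, 9216, 9859 and 10132, in the reverse order of the member sums. The cause of these orders was not tested. Torpor libraries 4 and 5 had the highest oligodendrocyte sums, 12576 and 14906 normalised CPM, and the lowest sums over the 24 members, 7082 and 7061, while torpor library 2 had 6068 and 9036. With the mean oligodendrocyte marker level as a covariate, 2 members were called higher in torpor than in active squirrels (Sdhb and Atp5f1). In that fit 2.32% of all rows were higher, against 9.73% without a covariate. The log2 fold changes in that fit were 0.43 for Sdha, 0.63 for Sdhb, 0.41 for Atp5b and 0.30 for Atp5o, each above its value without the covariate, and 0.28 for Atp5d, below it. With the mean neuron marker level as a covariate 0 members were called in torpor against active squirrels. Only 2.78% of all rows were called higher there, so calls were lost over the whole table. The log2 fold changes in that fit were 0.23 for Sdha (adjusted p = 0.254), 0.34 for Sdhb (adjusted p = 0.135), 0.22 for Atp5b and 0.14 for Atp5d, each below its value without the covariate, and 0.31 for Atp5o, above it. Active library 4, lowest for neuron markers, was the lowest active library for 5 members, Sdha, Sdhb and Atp5d among them, and the highest for 12, Sdhc, Sdhd and Atp5o among them. Without it Sdha and Sdhb kept their calls and Atp5d did not. Both marker levels differ between the states themselves, so that marker level and state cannot be fully told apart in these fits. In the authors' deposited table, the joint test of the 3 states had a false discovery rate under 0.05 for 3 of the 24 members (12.5%), against 14.6% of all rows. In the authors' deposited table these were Sdha (0.0200), Sdhb (0.0171) and Atp5d (0.0308).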

How the data were processed

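Reads were handled with R 4.2.1, edgeR 3.38.4, STAR 2.7.7a, Trimmomatic 0.39, Subread 2.0.1 and its featureCounts, per the submitters' processing notes. Genome build, annotation and strandedness were not given in the sources used here, which leaves rows with an antisense neighbour uncertain. The deposited values per library are a signal, normalised CPM. Beside them stand, per the file headers, the authors' log2 fold changes, F score, p-value and false discovery rate. Whole reads were recovered from these values, 100% of which came out whole to within 0.1 read.

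Rows at 1 or more in at least 5 libraries (15501, with 1492 removed) were tested on log2(value + 1) with limma 3.58.1 (trend and robust settings, R 4.3.3), in 1 fit of all 15 libraries with no covariate. Fold changes are on that scale. Tests were two-sided, Benjamini-Hochberg adjusted over all rows, with a threshold of 0.05. edgeR 4.0.16 on the recovered reads called 3119 rows in torpor against active, 479 in torpor against IBA and 214 in IBA against active, where limma called 3018, 455 and 202; DESeq2 1.42.0 was an alternative. Only the limma fit was also run on simulated counts, and the outcome is not given here. Levels were not compared between genes. The members and lists were chosen with earlier results of these data known. Named were members past the threshold in any comparison, the highest and lowest of each complex in torpor against active, and up to 3 genes of each pathway list with the smallest p; further members are named to complete each complex or for lacking overlap, chosen after their values were seen. Of the 24 symbols 8 are in the reference name table, which carries no build of these files, so no coordinates are given.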

Additional observations from a re-analysis of the deposited data

Results flagged for a closer look

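Over 72 groups of 5 libraries (24 members in 3 states), 3 had 1 library far from the other 4, by a gap over 0.71 of the group's range. Chance gives about 1 in 20 such groups. Sdha was at 1139.8 normalised CPM in torpor library 3, with the other torpor libraries at 881 to 929; its call in torpor against active squirrels held without that library. Atp5a1 was at 1538 in IBA library 5, with the others at 1273 to 1347. Sdhc was at 535 in IBA library 5, with the others at 456 to 478.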

How the results depend on the processing

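The 29 alternatives left the direction of all 5 called members in torpor against active squirrels unchanged. Over them Sdhb stayed under the threshold in 28, Sdha in 27, Atp5o in 21, Atp5d in 18 and Atp5b in 11. The count of 5 members higher became 3 with only the 10 libraries compared, and 2 to 5 with 1 library left out (2 without torpor library 3). It became 8 without both torpor libraries 4 and 5, 6 with voom, 2 with library-size scaling, 2 with the oligodendrocyte covariate and 0 with the neuron covariate. The share of all rows called higher was 9.73% in the main fit, 7.34% with the 10 libraries and 7.30% without torpor library 3. It was 7.09% without both torpor libraries 4 and 5, 9.43% with voom and 6.79% with library-size scaling. With the oligodendrocyte covariate it was 2.32%, and with the neuron covariate 2.78%. The count of 0 higher in IBA against active became 1 (Sdha) with a pseudocount of 0.1, only the 10 libraries, library-size scaling, DESeq2, voom, the neuron covariate, or without both torpor libraries 4 and 5, and 0 to 1 with 1 library left out (1 without torpor library 2 or 3). In torpor against IBA the count of 0 higher became 5 without both torpor libraries 4 and 5, 2 with DESeq2, 1 with voom, 1 with the oligodendrocyte covariate, and 0 to 1 with 1 library left out (Atp5d without torpor library 1 or active library 4, Sdhb without torpor library 5). The fits with such calls in torpor against IBA had 0.793% (without torpor library 5) to 2.78% (DESeq2) of all rows higher. The fits that called Sdha in IBA against active called 168 (without torpor library 3) to 848 (DESeq2) of all rows there, against 202 in the main fit. The complex II median became 0.44 in torpor against active and 0.20 in IBA against active with the oligodendrocyte covariate, and 0.37 in torpor against IBA without both torpor libraries 4 and 5. Torpor libraries 4 and 5 had the lowest member sums in their state, and leaving out both was chosen after the values were seen. The cause was not tested.

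Same-numbered libraries deviated together by correlations of -0.317 to 0.203. The labels do not say what a replicate number marks, and these correlations cannot settle whether the numbers pair libraries. With the replicate block 2 members (Sdha and Sdhb) were higher in torpor against active, where 7.42% of all rows were higher. In that fit 2285, 37 and 155 rows were called in torpor against active, IBA against active and torpor against IBA. In the same order of comparisons, the rows called were 3713, 848 and 1033 with DESeq2, 2944, 702 and 700 with voom, 710, 19 and 621 with the oligodendrocyte covariate, 915, 270 and 175 with the neuron covariate, and 2294, 385 and 262 with only the 10 libraries.

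Signs turned round only for members not called in the comparison concerned. In torpor against active, library-size scaling gave Atp5e -0.022, Atp5j -0.016, Sdhaf2 -0.041 and Sdhaf3 -0.054, and the neuron covariate Sdhaf1 -0.027. In IBA against active, the oligodendrocyte covariate gave Atp5c1 0.10, Atp5f1 0.14, Atp5g3 0.0097, Atp5j2 0.0041, Sdhaf4 0.025 and Sdhd 0.016, library-size scaling Sdhaf4 0.0028, and Sdhc was -0.0050 in edgeR, -0.0066 in edgeR with median-of-ratios scaling and -0.0065 in DESeq2. In torpor against IBA, library-size scaling gave Atp5g2 -0.0090 and Sdhaf1 -0.0040, the neuron covariate Sdhaf1 -0.090 and Sdhaf3 0.079, and the oligodendrocyte covariate Atp5s 0.070 and Sdhaf3 0.0017. Without both torpor libraries 4 and 5, Atp5s was 0.089, Sdha 0.0082 and Sdhaf3 0.13. Sdhaf3 was 0.018 in edgeR, 0.021 with median-of-ratios scaling and 0.021 in DESeq2. With 1 library left out, ranges that cross 0 in IBA against active were Atp5a1 -0.035 to 0.039, Atp5b -0.0075 to 0.041, Atp5c1 -0.10 to 0.0013, Atp5d -0.085 to 0.0047, Atp5f1 -0.071 to 0.018, Atp5j2 -0.047 to 0.018, Sdhaf3 -0.050 to 0.10, Sdhaf4 -0.072 to 0.057, Sdhc -0.061 to 0.058 and Sdhd -0.12 to 0.012. In torpor against IBA they were Atp5s -0.18 to 0.0035 and Sdhaf3 -0.092 to 0.15, and in torpor against active Atp5e -0.013 to 0.10, Atp5s -0.018 to 0.16, Sdhaf2 -0.060 to 0.12 and Sdhaf3 -0.069 to 0.19.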
